A study of Mus musculus with 6 samples.

Results

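Chromatin accessibility was examined at 10 genes that mark mast cells and basophils in 6 ATAC-seq libraries of mouse leukemia cells, 3 from mice given oil and 3 from mice given tamoxifen. ATAC-seq tags DNA that a transposase can reach in the nucleus, and a peak is a stretch where such tags pile up. The members were the peaks annotated to Cpa3, Hdc, Ms4a2, Fcer1a, Mcpt8, Cma1, Il4, Il13, Mitf or Tpsb2 and lying within 100000 bp of the start site of that gene. This rule gave 165 of the 175929 peaks in the table, and each of the 10 genes had at least 1 peak. Hdc held 50 peaks, Mitf 35, Il13 28, Il4 23, Cma1 11, Ms4a2 6, Cpa3 4, Tpsb2 4, Fcer1a 3 and Mcpt8 1. Another 5 peaks of Mitf lay past the limit, at 112935 to 141352 bp, with log2 fold changes between -0.29 and 0.68. The 3 Mitf peaks nearest to the limit on its inner side lay at 97740, -73199 and 54806 bp and had log2 fold changes of 0.32, 1.04 and 0.21.

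Cells of both groups were Usp18+/f UBCER-Cre AE9a leukemia cells, grown in recipient mice. AE9a is a shortened AML1-ETO fusion that drives myeloid leukemia in mice, here expressed together with GFP from a retrovirus in transduced hematopoietic cells. UBCER-Cre is a recombinase that is made in all tissues and becomes active with tamoxifen. Oil or tamoxifen was injected into mice that were already sick, and GFP+ Lin- c-Kit+ cells were sorted from the spleen 3 days after the first injection. The labels give the oil cells as Usp18+/f and the tamoxifen cells as Usp18+/D, so that the drug and the loss of 1 allele of Usp18 cannot be told apart. Usp18 encodes a protease that restrains interferon signaling. Nothing in the labels ties a library to a mouse of its own. The methods of the study match the number of mice to that of libraries for a sort that also served for ATAC-seq, but elsewhere name fewer biological replicates for this assay, and p-values therefore measure the spread between libraries, which may be partly technical.

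Mast cells and basophils carry a high-affinity receptor for immunoglobulin E (IgE) and store histamine and proteases in granules. Antigen that cross-links IgE on the receptor makes the cells release the granules and secrete cytokines such as those encoded by Il4 and Il13. Both lineages arise from c-Kit+ progenitors of the myeloid branch, and GATA2, RUNX1 and, in mast cells, MITF are well-known regulators of their genes. The value measured here is DNA accessibility and not RNA or protein, and the sort removes mature cells of several lineages. In bulk samples, fewer cells of a type and less open chromatin per cell cannot be told apart.

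The libraries held 57.4 to 74.7 M tags in total (M stands for 1000000), of which 17.5 to 21.1 M lay in peaks, and the median peak held 45 to 57 tags. At such peaks counting error is a sizeable part of the spread, so that a modest difference at a single peak may not have been detectable at this depth. Pairs of oil libraries correlated at 0.974 to 0.975 (Pearson's r of log2 tags across peaks, which are not independent replicates). Tamoxifen replicates 1 and 3 correlated at 0.968. Tamoxifen replicate 4 correlated with them at 0.949, below its 0.960 to 0.964 with the oil libraries, and results are given with and without it where it matters. Of 7 markers of the sorted progenitors, all had peaks, and Kit itself did not pass the test (log2 fold change 0.01, adjusted p = 0.968, DESeq2). Of the 7, 2 rose and none (0) fell. Those that rose were Cd34 (0.83, adjusted p = 3.33e-09) and Ptprc (0.69, adjusted p = 3.50e-05), so that the progenitor markers were not all alike in the 2 groups.

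Tags were tested with DESeq2 (Wald test) on all 175929 peaks, and again on tags summed per gene over its peaks for 19781 genes. Adjusted p-values were taken over all peaks or all genes. A peak or gene passed at an adjusted p under 0.05, and a peak was called when the fold was over 2 as well. Of the 165 member peaks, 6 passed (3.64%), all with more tags after tamoxifen, where 1.38% of all peaks passed. The number called was 5 (3.03%), where 0.641% of all peaks were called. Of these 6 peaks, 5 belonged to Hdc and 1 to Cma1, so that the count rests mainly on Hdc. The authors made 1 peak list per group, and a peak entered the table when either list held it. All 5 passing Hdc peaks were in the tamoxifen list alone, so that they entered through the group where they are high, and nothing about the members is read from the share of 3.64%. Of the 115 member peaks in both lists 1 passed (0.870%), where 1.49% of all such peaks did. Without tamoxifen replicate 4, 18 member peaks passed, 14 of Hdc and 2 of Cma1 with more tags, and 1 of Il13 and 1 of Ms4a2 with fewer, while the share of all peaks that passed rose from 1.38% to 3.70%. None (0) passed without oil replicate 1, oil replicate 2 or tamoxifen replicate 3, with 24, 18 and 18 at an unadjusted p under 0.05. DESeq2 gave no adjusted p to 12, 43 and 32 of the 165 member peaks there, so that these could not pass. The shares of all peaks that passed in these runs were 0.530%, 0.484% and 0.351%. Without oil replicate 4, 2 member peaks and 0.561% of all peaks passed, and without tamoxifen replicate 1, 1 and 0.616%. In these 2 runs 21 and 15 member peaks had no adjusted p.

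The median log2 fold change of the member peaks was 0.21, with 117 higher and 48 lower after tamoxifen, and the median of all peaks was -0.00. The 115 peaks of the genes other than Hdc had a median of 0.11, with 70 higher and 45 lower. In tamoxifen replicates 1, 3 and 4 the median log2 difference of the member peaks from the oil mean was 0.13, 0.26 and 0.10. At 35 member peaks (21.2%) all tamoxifen libraries lay above all oil libraries, which held for 11.9% of all peaks. The reverse held at 9 member peaks (5.45%) and at 9.99% of all peaks. At an unadjusted p under 0.05, 37 member peaks (22.4%) were higher and 3 (1.82%) lower, where 6.16% and 2.82% of all peaks were. Of the member peaks 20.0% were in the tamoxifen list alone, against 11.2% of all peaks. The medians and shares therefore also follow the way the peaks were chosen, and nothing about the members is read from them. Among peaks in both lists the median was 0.13 for the 115 members and 0.01 for all.

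**Figure D1:**
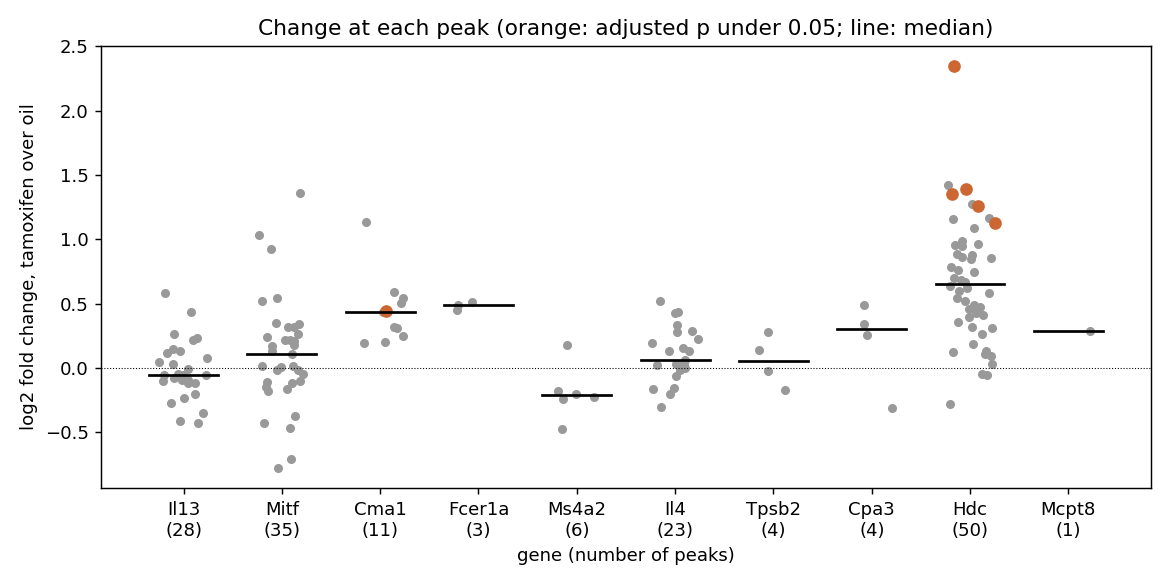
Log2 fold change (tamoxifen over oil) of each of the 165 member peaks, by gene, with the number of peaks under each name. Points are peaks, black lines are medians over the peaks of a gene, and orange points have an adjusted p under 0.05. The 5 orange points of Hdc lie between 1.13 and 2.35, and the orange point of Cma1 at 0.44.

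At gene level, 2 of the 10 genes passed with more tags (Cma1 and Fcer1a), where 5.00% of all genes did. Ms4a2 passed with fewer tags, where 1.02% of all genes did. Only Cma1 passed without oil replicate 1, oil replicate 2, oil replicate 4 or tamoxifen replicate 3. The shares of all genes that passed in these runs were 2.37%, 2.63%, 3.19% and 2.30%, in place of 6.02% with all libraries. Without tamoxifen replicate 4, Hdc passed as the fourth gene, with more tags, and 14.8% of all genes passed in either direction. The other 7 genes did not pass with all libraries, and for Il4, Il13, Mitf, Cpa3 and Tpsb2 the log2 fold change of the summed tags lay between -0.03 and 0.12.

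Levels of the genes were compared in the oil group per length of peak. Il13 had the highest level, at 421 ± 14.1 normalized tags per 1000 bp of peak (SD, n = 3), and Mitf followed at 337 ± 3.45. Cma1 (303 ± 17.1), Fcer1a (297 ± 32.2), Ms4a2 (284 ± 15.9) and Il4 (281 ± 8.22) came next, with library values that overlapped from each to the next. Tpsb2 (251 ± 7.24) and Cpa3 (247 ± 6.75) overlapped as well. Hdc (211 ± 22.9) and Mcpt8 (109 ± 23.5) were lowest, and neither overlapped its neighbor in this order. Over all peaks the level was 379 to 391 tags per 1000 bp in the 6 libraries, so that Il13 alone lay above it in the oil group. After tamoxifen the means were 418 for Il13, 414 for Fcer1a, 397 for Cma1, 354 for Mitf, 302 for Il4, 293 for Hdc, 273 for Cpa3, 252 for Tpsb2, 226 for Ms4a2 and 133 for Mcpt8.

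**Figure D2:**
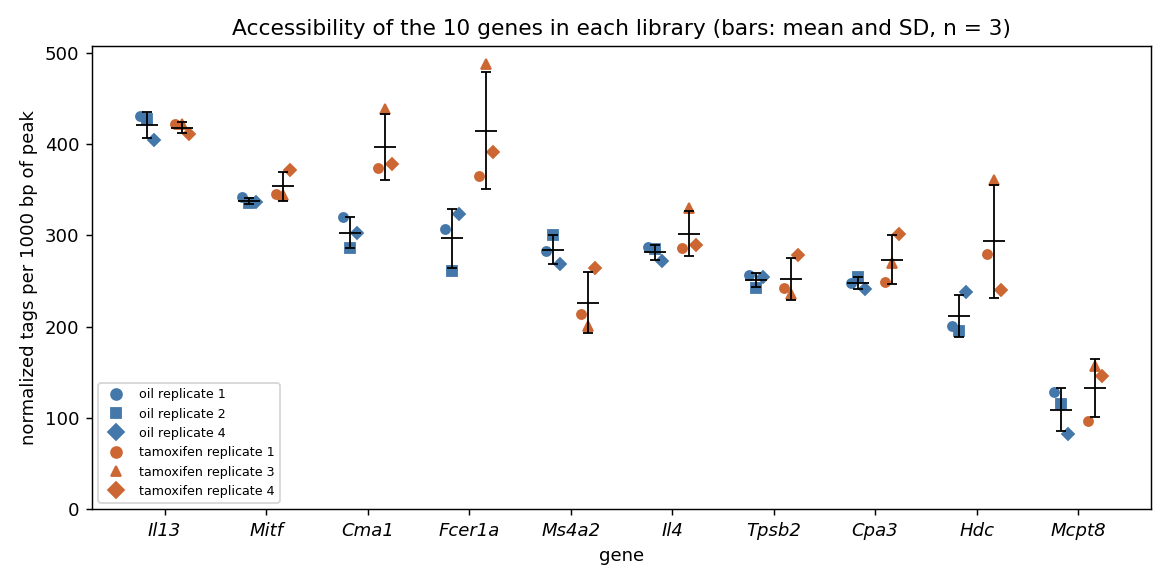
Normalized tags per 1000 bp of peak (vertical axis) for the 10 genes in each of the 6 libraries, with mean and SD over 3 libraries per group. The genes run from the highest to the lowest oil mean, from 421 for Il13 to 109 for Mcpt8.

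The IgE receptor is built from an alpha chain that binds IgE (Fcer1a), a beta chain that amplifies the signal (Ms4a2) and a gamma chain that carries it into the cell (Fcer1g). Fcer1a rose and Ms4a2 fell at gene level, whereas Fcer1g, which is no member, had a log2 fold change of -0.06 (adjusted p = 0.875). Differences between the chains were not tested.

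Fcer1a (chr1:173221269-173227232, minus strand, mm10) held 220, 189 and 238 normalized tags over its 3 peaks in oil replicates 1, 2 and 4. In tamoxifen replicates 1, 3 and 4 it held 259.8, 342 and 284, so that the groups did not overlap. The mean went from 215 ± 25 to 295 ± 42.3 (SD, n = 3), a log2 fold change of 0.45 (SE 0.14, adjusted p = 0.0292, DESeq2). All 3 peaks had more tags, by 0.45 to 0.51 on the log2 scale, and none of the 3 passed alone. The peak at its start site (chr1:173227170-173227407) held 36.4, 39.0 and 41.2 tags after oil and 53.7, 60.7 and 48.9 after tamoxifen (log2 fold change 0.49, adjusted p = 0.641). The other 2 peaks lay 10001 and 10412 bp upstream, between genes. The call was lost with edgeR (adjusted p = 0.0569), and without oil replicate 1 (0.168), oil replicate 2 (0.319), oil replicate 4 (0.0554) or tamoxifen replicate 3 (0.405). Without tamoxifen replicate 4 it held, at a log2 fold change of 0.48 (adjusted p = 0.0171).

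The part of the start-site peak that precedes the Fcer1a transcript (chr1:173227233-173227407, minus strand, RefSeq GRCm38.p6) is shown because it is the promoter of the gene and holds 2 motif matches. Capitals mark them, a GATA match (ttatct, the other strand of agataa) and a RUNX match (tgtggt).
Fcer1a: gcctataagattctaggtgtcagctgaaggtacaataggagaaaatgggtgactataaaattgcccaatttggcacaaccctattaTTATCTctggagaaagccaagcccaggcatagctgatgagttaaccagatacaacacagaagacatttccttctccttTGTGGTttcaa

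Ms4a2 (chr19:11615517-11623790, minus strand) held 499, 534 and 488 normalized tags over its 6 peaks after oil and 374, 348 and 472 after tamoxifen, with replicate 4 the highest of the tamoxifen libraries and close to the oil group. The mean went from 507 ± 24.1 to 398 ± 65.4 (SD, n = 3), a log2 fold change of -0.35 (SE 0.12, adjusted p = 0.0438, DESeq2). Of its 6 peaks, 5 had fewer tags and 1 had more. The strongest peak lay 1740 bp upstream, between genes (chr19:11625349-11625569), and held 298, 293 and 270.3 tags after oil and 186, 165 and 265 after tamoxifen. Its log2 fold change was -0.48 (SE 0.15, adjusted p = 0.103), and without tamoxifen replicate 4 it was -0.70 (adjusted p = 0.000151). The peak at the start site held 70.0, 70.7 and 64.5 tags after oil and 50.3, 69.1 and 57.3 after tamoxifen, and these overlapped (log2 fold change -0.22, adjusted p = 0.919).

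The gene-level call of Ms4a2 was lost with edgeR (adjusted p = 0.0796), with scaling to mapped tags (0.0622), within 20000 bp (0.0661) and without oil replicate 1 (0.229), oil replicate 2 (0.33), oil replicate 4 (0.151), tamoxifen replicate 1 (0.307) or tamoxifen replicate 3 (0.417). Without tamoxifen replicate 4 the log2 fold change was -0.49 (adjusted p = 0.000173).

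The upstream peak of Ms4a2 is shown because it carried most of the difference, and it was chosen after its values were seen (chr19:11625349-11625569, minus strand, RefSeq GRCm38.p6). Capitals mark its only match among the motifs searched, a GATA match. The short stretch of the start-site peak that precedes the transcript (chr19:11623791-11623841) held no match.
Ms4a2 upstream peak: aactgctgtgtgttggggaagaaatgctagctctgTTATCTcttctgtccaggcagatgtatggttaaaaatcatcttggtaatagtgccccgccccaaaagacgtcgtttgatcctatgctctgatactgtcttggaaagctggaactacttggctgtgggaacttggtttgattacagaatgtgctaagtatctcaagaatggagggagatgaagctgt
Ms4a2 start-site peak: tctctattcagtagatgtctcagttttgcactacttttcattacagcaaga

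**Figure D3:**
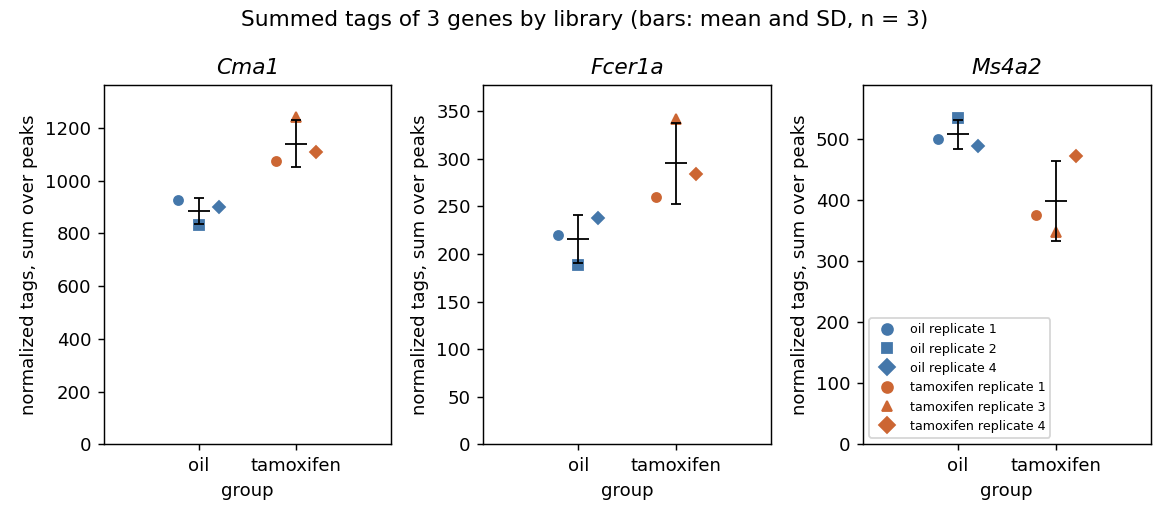
Normalized tags summed over the peaks of Cma1, Fcer1a and Ms4a2 (vertical axes, from 0) in each library, by group, with mean and SD over 3 libraries. For Cma1 and Fcer1a all tamoxifen points lie above the oil points, and for Ms4a2 all lie below, with tamoxifen replicate 4 (472) next to the lowest oil library (488).

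The granule proteases comprised Cma1, a chymase of mast cells, Cpa3, a carboxypeptidase, Tpsb2, a tryptase, and Mcpt8, a protease used as a marker of mouse basophils. Of these 4 genes, Cma1 rose and the other 3 did not pass. Cma1 (chr14:55941451-55944675, minus strand) held 926, 831 and 901 normalized tags over its 11 peaks after oil and 1074, 1242 and 1107 after tamoxifen, with no overlap. The mean went from 886 ± 49.0 to 1141 ± 88.8 (SD, n = 3), a log2 fold change of 0.36 (SE 0.08, adjusted p = 0.000374, DESeq2). All 11 peaks had more tags, by 0.19 to 1.14 on the log2 scale. At 6 of them all tamoxifen libraries lay above all oil libraries, which held for 11.9% of all peaks. The gene passed without any single library, with adjusted p-values of 0.000116 to 0.0338.

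The peak of Cma1 that passed alone lay 15011 bp past its start site, between genes (chr14:55929426-55929902). It held 238, 211 and 225 tags after oil and 283, 339.8 and 295 after tamoxifen, a log2 fold change of 0.44 (SE 0.13, adjusted p = 0.0410). The peak with the most tags, at 21942 bp, held 305, 278 and 295 tags after oil and 379, 401 and 318 after tamoxifen (log2 fold change 0.32, adjusted p = 0.223). The peak at the start site (chr14:55944454-55944706) held 23.7, 20.5 and 20.2 tags after oil and 35.8, 54.6 and 52.6 after tamoxifen. Its log2 fold change of 1.14 was the largest of the gene but fell short of the threshold (adjusted p = 0.0525), and it was in the tamoxifen list alone. It passed with edgeR (0.00963), mapped tags (0.0446) and promoter-proximal peaks fitted apart (0.0118), but not with TMM (0.0522), total tags in peaks (0.0552) or a minimum of 20 tags (0.0544), nor without any single library (0.0653 to 0.580). The call at 15011 bp was lost without any 1 of the libraries other than tamoxifen replicate 4, with adjusted p-values of 0.0927 to 0.602, and with total tags in peaks (0.0735) and distal peaks fitted apart (0.165), and held without that library (0.0252).

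The middle of the passing peak of Cma1 is shown because no other member outside Hdc had a peak that passed (chr14:55929514-55929813, minus strand, RefSeq GRCm38.p6). It held no match to the motifs searched, which says only that these letters are not in this window.
Cma1: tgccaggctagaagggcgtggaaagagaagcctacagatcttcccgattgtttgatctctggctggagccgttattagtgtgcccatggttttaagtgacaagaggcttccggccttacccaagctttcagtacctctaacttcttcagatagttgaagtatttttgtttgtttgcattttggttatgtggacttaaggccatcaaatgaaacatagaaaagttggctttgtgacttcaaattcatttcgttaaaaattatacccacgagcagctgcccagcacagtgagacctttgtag

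Cpa3 (chr3:20215616-20242209, minus strand) had 4 peaks with 318 ± 5.73 tags (SD, n = 3) after oil and 345 ± 38.2 after tamoxifen, a log2 fold change of 0.12 (adjusted p = 0.675). Its peaks at 48 and 2007 bp before the start site lay higher in all tamoxifen libraries, at log2 fold changes of 0.34 and 0.26. A peak 12955 bp upstream, in an intron of the neighboring gene Cpb1, lay lower in all of them, at -0.31. None of these 3 passed (adjusted p 0.679 to 0.853), and the sum over the gene joins differences of opposite sign.

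Tpsb2 (chr17:25366308-25368096, plus strand) had 4 peaks, all upstream, with 248 ± 8.71 tags after oil and 246 ± 26.2 after tamoxifen (log2 fold change -0.01, adjusted p = 0.979). The sign at this size turned with the scaling, to 0.02 with mapped tags. Mcpt8 (chr14:56082163-56085499, minus strand) had a single peak, 1518 bp upstream, with 32.0, 29.5 and 21.2 tags after oil and 24.1, 38.3 and 36.8 after tamoxifen (log2 fold change 0.26, adjusted p = 0.799). Tpsb2 lies near the related tryptase gene Tpsab1 and Cma1 near related chymase genes, and whether reads were shared between them was not tested.

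Hdc encodes histidine decarboxylase, the enzyme that makes histamine. Its 50 peaks (chr2:126593659-126624025, minus strand, for the longest gene model) held 3152, 3078 and 3827 normalized tags after oil and 4351, 5540.0 and 3807 after tamoxifen. Tamoxifen replicates 1 and 3 lay above all oil libraries and replicate 4 just below oil replicate 4, so that the groups overlapped. The log2 fold change of the gene was 0.45 (SE 0.19, unadjusted p = 0.0197, adjusted p = 0.168, DESeq2), and 0.56 without tamoxifen replicate 4 (adjusted p = 0.0205). Of the 50 peaks, 47 had more tags after tamoxifen, 24 of them at an unadjusted p under 0.05, and 12 had no overlap between the groups. Of all peaks, 6.16% were higher at an unadjusted p under 0.05, and at 11.9% all tamoxifen libraries lay above all oil libraries. Among the 50 peaks 20 were in the tamoxifen list alone, so that these counts also follow the way the peaks were chosen.

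The Hdc peaks were then grouped by position along the gene. The 8 peaks upstream of the gene, 6 of which lie in the neighboring gene Gabpb1, had a median log2 fold change of 0.22, and 1 had an unadjusted p under 0.05. The 30 peaks within the gene had a median of 0.65, with 15 at an unadjusted p under 0.05 and 29 higher. The 12 peaks past the gene end, toward and into Slc27a2, had a median of 1.14, all 12 were higher and 8 had an unadjusted p under 0.05. Of these 12, 9 were in the tamoxifen list alone, as were 9 of the 30 within the gene and 2 of the 8 upstream, so that the order of the medians also follows the way the peaks were chosen. In both lists there were 3 peaks past the gene end, with log2 fold changes of 0.41, 0.59 and 0.96, and 18 within the gene, with a median of 0.57, and none (0) of these passed. Differences between these stretches were not tested.

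The tamoxifen libraries did not share 1 profile. Past the gene end the tags summed to 256, 319 and 315 after oil and to 822, 749 and 291 after tamoxifen, with replicate 4 within the oil range. Within the gene the sums were 2049.5, 1992 and 2585 after oil and 2669, 3890 and 2594 after tamoxifen, with replicate 3 the highest and replicate 4 close to oil replicate 4. Upstream they were 841, 746 and 818 after oil and 880, 1008 and 873 after tamoxifen. Without tamoxifen replicate 4 the medians of the 3 stretches were 0.21 upstream, 0.77 within the gene and 1.51 past its end.

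**Figure D4:**
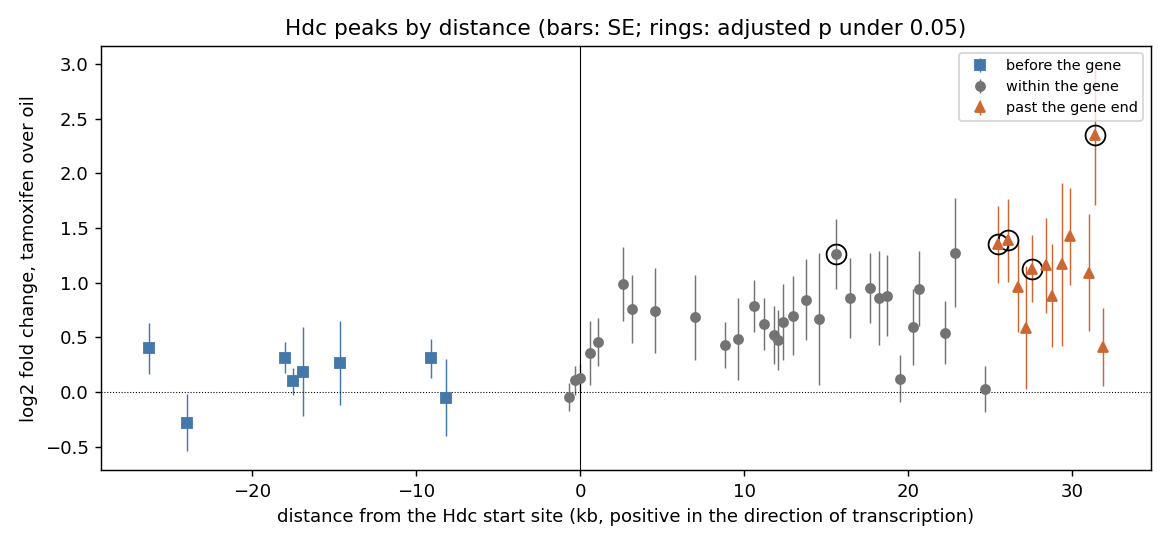
Log2 fold change (tamoxifen over oil) of the 50 Hdc peaks against distance from the Hdc start site in kb, positive in the direction of transcription. Error bars are SE from DESeq2, colors give the position relative to the gene, and rings mark the 5 peaks with an adjusted p under 0.05, of which 1 lies within the gene and 4 past its end.

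The peak at the Hdc start site did not pass, although it had the most tags of the gene (chr2:126618565-126618824). It held 316, 286 and 276 tags after oil and 333, 348 and 282 after tamoxifen (log2 fold change 0.13, adjusted p = 0.886). The peak with the smallest adjusted p lay in an intron 15589 bp past the start site (chr2:126602906-126603273). It held 24.3, 25.4 and 39.0 tags after oil and 58.5, 105 and 51.2 after tamoxifen, with no overlap (log2 fold change 1.26, SE 0.32, adjusted p = 0.0120).

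At 25488 bp, by the end of the transcript (chr2:126593018-126593363), the peak held 24.3, 28.8 and 22.4 tags after oil and 83.1, 79.7 and 30.7 after tamoxifen (log2 fold change 1.35, SE 0.35, adjusted p = 0.0162). At 27527 bp, between genes (chr2:126590956-126591346), it held 27.6, 40.0 and 35 tags after oil and 92.8, 88.0 and 44.3 after tamoxifen (log2 fold change 1.13, SE 0.30, adjusted p = 0.0216). In both peaks tamoxifen replicate 4 was the lowest tamoxifen library and lay nearest to the oil values. At 31356 bp, in an intron of Slc27a2 (chr2:126587180-126587464), the 3 oil libraries held 4.96, 4.88 and 4.93 tags and tamoxifen held 42.5, 31.8 and 5.12, the last close to the oil level. That peak had a log2 fold change of 2.35 (SE 0.64, adjusted p = 0.0249), which rests on few oil tags, and did not pass with edgeR (0.173), nor did that at 25488 bp (0.0745). The remaining passing peak, at 26086 bp (chr2:126592482-126592703), was named after its values were seen and had a log2 fold change of 1.39 (adjusted p = 0.0258).

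**Figure D5:**
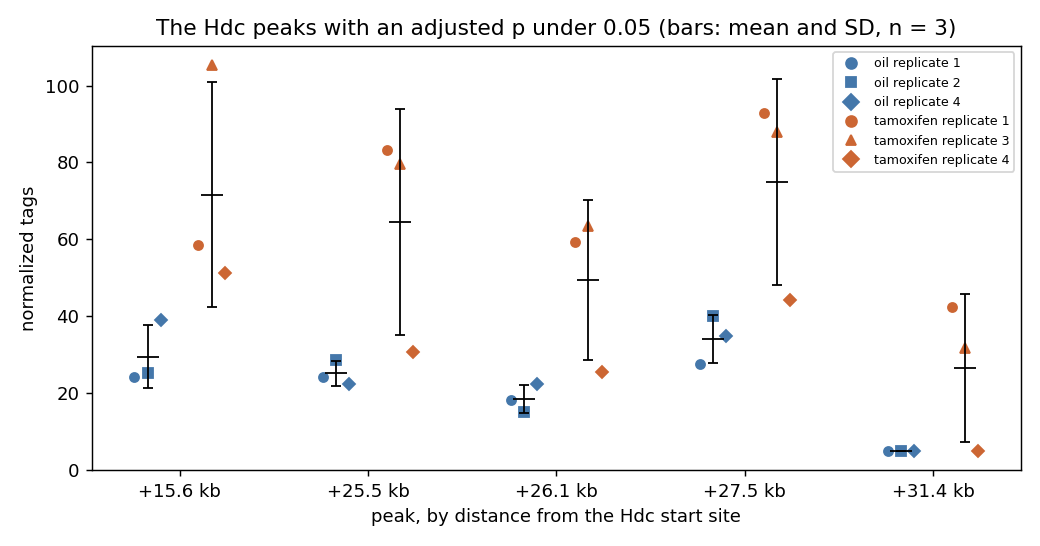
Normalized tags (vertical axis, from 0) in each library at the 5 Hdc peaks with an adjusted p under 0.05, ordered by distance from the start site, with mean and SD over 3 libraries per group. Tamoxifen replicate 4 (orange diamonds) is the lowest tamoxifen library at each of them, and at +31.4 kb it lies at 5.12 tags, next to the oil values of 4.88 to 4.96.

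The intronic Hdc peak is shown because it had the smallest adjusted p of all member peaks (chr2:126603028-126603273, minus strand, the bases outside exons, RefSeq GRCm38.p6). It opens with a run of ctc repeats. Capitals mark a RUNX match (accaca, the other strand of tgtggt) and a match to catgtg, a form of the E-box that MITF can bind.
Hdc: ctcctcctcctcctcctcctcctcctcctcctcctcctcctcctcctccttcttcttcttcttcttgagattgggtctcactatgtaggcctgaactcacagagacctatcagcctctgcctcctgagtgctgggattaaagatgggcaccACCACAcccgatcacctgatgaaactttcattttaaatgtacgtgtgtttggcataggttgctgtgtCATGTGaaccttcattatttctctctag

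Of the 50 Hdc peaks, 26 were in both lists, 20 in the tamoxifen list alone and 4 in the oil list alone. Over all member peaks 20.0% were in the tamoxifen list alone and 10.3% in the oil list alone, against 11.2% and 17.4% of all peaks. Membership in a list comes from the same libraries and is no independent measure.

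Il4 and Il13 encode cytokines that drive IgE responses and are close neighbors on chromosome 11. Neither passed. Il4 (chr11:53612460-53618665, minus strand) held 2201 ± 33.2 tags (SD, n = 3) over its 23 peaks after oil and 2323 ± 161 after tamoxifen, a log2 fold change of 0.08 (SE 0.06, adjusted p = 0.596). Its strongest peak, at the start site (chr11:53617277-53617546), held 434, 404 and 391 tags after oil and 448, 494 and 407 after tamoxifen (log2 fold change 0.13, adjusted p = 0.846). Il13 (chr11:53631323-53634702, minus strand) held 3566 ± 69.1 tags over its 28 peaks after oil and 3486 ± 26.2 after tamoxifen, a log2 fold change of -0.03 (SE 0.05, adjusted p = 0.833), which turned to 0.00 with scaling to mapped tags. Its start-site peak had a log2 fold change of 0.21 (adjusted p = 0.847) and its strongest peak, 1636 bp upstream, one of -0.06 (adjusted p = 0.977).

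The Il13 peaks reach into Rad50, a DNA repair gene whose introns are known to hold regulatory elements of this cytokine cluster. The 9 Il13 peaks inside Rad50 had a median log2 fold change of -0.10. A peak chosen after its values were seen, in a Rad50 intron 28400 bp upstream (chr11:53662996-53663208), held 197, 191 and 181 tags after oil and 119.9, 128 and 173 after tamoxifen. Its log2 fold change was -0.43 (adjusted p = 0.250), and it passed without tamoxifen replicate 4 (-0.61, adjusted p = 0.0144), where 3.70% of all peaks passed. Another, 12138 bp upstream, held 62.9, 55.6 and 66.3 tags after oil and 96.2, 99.7 and 80.6 after tamoxifen, a log2 fold change of 0.59 (adjusted p = 0.230). Among 6 neighbors of the cluster tested as genes, Kif3a, a kinesin motor gene, fell (log2 fold change -0.26, adjusted p = 0.00769), where 1.02% of all genes did. The other 5 did not pass, and the median over the 6 was -0.02.

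Mitf encodes a transcription factor that mast cells need and that has several start sites. Mitf (chr6:97807002-98021360, plus strand) held 2985 ± 37.7 tags (SD, n = 3) over its 35 peaks after oil and 3079 ± 184 after tamoxifen, a log2 fold change of 0.05 (SE 0.06, adjusted p = 0.779), and -0.00 without tamoxifen replicate 4. The strongest of all member peaks, 97 bp before a distal start site (chr6:97806861-97807061), held 672, 633 and 612 tags after oil and 647, 676 and 611 after tamoxifen (log2 fold change 0.01, adjusted p = 0.996). The peak nearest to a start site, 39 bp before an inner one (chr6:97929657-97929899), held 132, 134 and 109.8 tags after oil and 172, 141 and 162 after tamoxifen, without overlap (log2 fold change 0.34, adjusted p = 0.524). Among the 35 peaks, 9 lay higher and 2 lower in all tamoxifen libraries, where 11.9% and 9.99% of all peaks did. The largest difference, at 23943 bp in an intron, was from 8.82, 13.2 and 8.07 tags after oil to 29.0, 30.1 and 19.6 after tamoxifen (log2 fold change 1.36, adjusted p = 0.148).

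Other genes of the lineage were taken from lists. Of 25 further mast cell and basophil genes, 22 had peaks, 3 rose and none (0) fell, where 5.00% of all genes rose and 1.02% fell, with a median log2 fold change of 0.04 where that of all genes was -0.01. Mcpt4, a chymase of the same cluster as Cma1, held 211, 183 and 225 tags after oil and 274, 342 and 269.9 after tamoxifen, a log2 fold change of 0.52 (adjusted p = 0.00767). Mcpt1, another chymase of that cluster, named after its values were seen, had a log2 fold change of -0.36 (adjusted p = 0.391), and of -0.77 without tamoxifen replicate 4 (adjusted p = 0.000747). Slc18a2, the transporter that loads histamine into granules, had a log2 fold change of 0.24 (adjusted p = 0.0141). Csf2rb2, a receptor subunit for interleukin-3, had one of 0.32 (adjusted p = 0.0276). Gata2 and Gata1 had log2 fold changes of -0.02 (adjusted p = 0.920) and -0.13 (adjusted p = 0.399), and Gata1 passed without tamoxifen replicate 4 (-0.24, adjusted p = 0.00194). Tpsg1, another gene of this list, passed with more tags in that run (0.23, adjusted p = 0.0385). There 14.8% of all genes passed in either direction, so that nothing about these genes is read from passing in it.

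Of 18 genes of IgE receptor signaling, the gamma chain gene Fcer1g among them, 17 had peaks, 2 rose and none (0) fell. The shares of all genes were the same as above, and the median was 0.02. Syk, the kinase that binds the gamma chain, held 619, 707 and 648 tags after oil and 907, 861 and 848 after tamoxifen (log2 fold change 0.41, adjusted p = 9.66e-05). Plcg2, a phospholipase that Syk activates, held 1182, 1247 and 1285 tags after oil and 2370.3, 2578 and 2149.6 after tamoxifen (log2 fold change 0.93, adjusted p = 4.16e-33). Both genes act in many blood cells and are not particular to mast cells. Of the 3 relatives of Mitf, 2 had peaks and neither passed.

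Markers of other cells that the sort could hold were examined the same way, where 5.00% of all genes rose and 1.02% fell. Of 9 eosinophil genes, 1 rose (Siglecf, log2 fold change 0.35, adjusted p = 0.00606), and the summed tags of the list ran from 1864 to 2049 after oil and from 1978 to 2188 after tamoxifen. Of 12 T cell genes with peaks, 2 rose (Cd3d at 0.68, adjusted p = 1.36e-05, and Bcl11b at 0.56, adjusted p = 0.0361). The median log2 fold change of the 12 was 0.26. Their sums of 5689 to 5862 after oil and 5504 to 5888 after tamoxifen overlapped, but rest mainly on Gata3 and Tbx21, with oil means of 2927 and 1453. These 2 genes had log2 fold changes of -0.14 and -0.11 and did not pass (adjusted p = 0.212 and 0.479, DESeq2). The summed tags of 8 erythroid genes, at 8267 to 8673 after oil, lay above the 7383 to 8003 after tamoxifen. Of 9 genes of mature myeloid cells, none (0) passed, and their sums of 2853 to 3004 after oil lay below the 3079 to 3177 after tamoxifen. Of 6 B cell genes none (0) passed either, and among the 7 progenitor genes Cd34 (0.83, adjusted p = 3.33e-09) and Ptprc (0.69, adjusted p = 3.50e-05) rose. The part of these lists in the values of Cma1, Fcer1a, Ms4a2 and Hdc was not tested.

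Short motifs of factors known in these lineages were searched on both strands in the central 200 bases of each peak. The GATA form agataa occurred in 24.2% of the member peaks and in 15.1% of 175738 peaks of the table, and the form tgataa in 18.2% and 10.2%. The RUNX motif tgtggt occurred in 21.8% and 18.7%, and the E-box forms catgtg in 17% and 16.1% and cacgtg in 4.24% and 4.59%. The ETS motif gaggaa occurred in 15.2% of member peaks and 21.6% of the table, and the AP-1 motif tgantca was at 8.48% against 6.61%. A STAT motif (ttc and gaa with 3 bases between them) occurred in 10.9% against 4.85%, and the ISRE motif of interferon-stimulated genes in 1.82% against 2.04%. These shares are descriptions with no test. All 4 Cpa3 peaks held agataa and 3 of them tgtggt. Of the 50 Hdc peaks, 13 held tgtggt, 10 catgtg and 7 agataa, and of the 11 Cma1 peaks 5 held tgataa. The median GC content was 49.0% in member peaks and 50.5% in all peaks, and the median width 255 and 250 bp.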

How the data were processed

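ATAC-seq was measured in 3 oil and 3 tamoxifen libraries, grouped by the sample titles. The authors mapped reads to mm10 with Bowtie2 at default parameters, called peaks with HOMER (findPeaks) per group, merged the lists and counted tags per merged peak. The authors deposited raw tags, an estimated count in steps of 0.5, not normalized and limited to 3 tags per position, which were rounded to whole numbers here. A score from the peak lists, deposited beside each peak, entered no test. Limiting tags per position caps the strongest peaks, and the peak lists come from the libraries compared.

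Tags of all peaks, and sums per gene over the peaks within 100000 bp whose nearest start site was its own, were fitted with DESeq2 1.42.0 (R 4.3.3) at its default size factors, two-sided, with Benjamini-Hochberg adjustment. Normalized tags are tags divided by size factors, from the gene fit for gene sums and from the peak fit for peaks and levels per 1000 bp. Alternatives were edgeR 4.0.16 (quasi-likelihood test with TMM), other scalings, a mean of at least 20 tags, distance limits of 50000 and 20000 bp, distal (over 3000 bp) and promoter-proximal peaks fitted separately, a replicate block and leaving out each library. Scripts were tested on simulated data. Replicate numbers 1 and 4 occur in both groups, and deviations from the group means correlated between same-numbered libraries at -0.0440 and 0.0508, so that the numbers were not taken as pairs.

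Members and lists were chosen with earlier results of these data known. Named peaks were, per gene, the peak nearest a start site, the strongest peak and up to 4 passing peaks. From other lists, up to 3 genes that passed were named, and others named were chosen after their values were seen. Single-gene results of 1 marker list are not reported here. Sequences were read from the RefSeq GRCm38.p6 genome, the build of mm10, where the start-site distances of all 165 member peaks were matched within 2 bp. Motifs were searched in the 175738 peaks whose central 200 bases could be read.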

Additional observations from a re-analysis of the deposited data

How the results depend on the processing

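The 6 passing and 5 called member peaks were 2 and 1 within 20000 bp of a start site, where 117 peaks were left, and without 1 library the counts ran from 0 to 18 and from 0 to 12. The 3 genes that passed were 1 with edgeR, where 6.80% of all genes passed, and without 1 library from 1 to 4. Over the runs without 1 library, 0.351% to 3.70% of all peaks and 2.30% to 14.8% of all genes passed. The replicate block over numbers 1 and 4 uses 4 libraries and was not a pairing shown by the data. With it, 0 member peaks passed, 0 were called and 0 member genes passed. None (0) of either had an unadjusted p under 0.05, and 35 of the 165 member peaks had no adjusted p. With the block 0.0307% of all peaks and 0.324% of all genes passed. In edgeR with all libraries 9 member peaks passed, 4 of them shared with DESeq2, where 2.91% of all peaks passed. The cause of these differences was not tested, and the fewer libraries of the block were not separated from the block itself. The median log2 fold change of the member peaks stayed above 0 in every alternative run, from 0.14 with the block to 0.25 without tamoxifen replicate 4. These runs share libraries and peaks, with 33 of the 165 member peaks in the tamoxifen list alone, and are no independent support. Among single genes and peaks compared under an alternative, 353 kept direction and side of the threshold, 48 lost the threshold, 6 gained it and 15 turned sign. All 15 were close to 0. With mapped tags the log2 fold change of Il13 was 0.0014 and of Tpsb2 0.022, and within 20000 bp it was 0.0067 for Il13 and -0.042 for Mitf. With total tags in peaks it was 9.1e-05 for Tpsb2 and -0.00029 for the Mitf peak at -97 bp, and with the block 0.010 and -0.032. Leaving out 1 library gave -0.10 to 0.042 for Tpsb2, -0.065 to 0.0013 for its peak at -2438 bp, -0.0038 to 0.076 for Mitf and -0.021 to 0.052 for its peak at -97 bp. A median of 45 to 57 tags per peak limits what single peaks can show.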
